A study of Mus musculus with 8 samples.

Results

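Prostatic adenocarcinoma (PCa) tissue from hARtg-Osr1Cre mice was compared with normal prostate from wild-type (WT) control mice across all genes of a bulk RNA-seq count table. The members were the 2 samples labelled as PCa and the 3 labelled as WT control, 5 of the 8 samples of the series, and no measured value chose them. The other 3 samples came from hARtg-Osr1Cre prostates with prostatic intraepithelial neoplasia (PIN), a lesion that precedes adenocarcinoma. The hARtg-Osr1Cre mice were R26mTmG/hAR:Osr1Cre/+. They carried at the Rosa26 locus a human androgen receptor transgene (hARtg) on 1 allele and the mTmG reporter on the other. The transgene is silent until Cre recombinase removes a floxed stop, and the reporter turns from membrane Tomato to membrane GFP. Cre was driven by Osr1, a gene of urogenital progenitor cells, so that both alleles were switched in Osr1-expressing cells and their descendants. The mice had a mixed C57BL/6 and 129S1/SvImJ background, and the WT prostates were sex- and age-matched. The WT mice were R26mTmG/+:Osr1Cre/+, so that they shared the Cre and reporter alleles with the tumor mice and lacked the transgene. The ages of these animals are not given in the sources used here. PCa tissue was judged microscopically to consist mostly of tumor cells, and each library came from a different animal. Genes were weighed by whether both PCa libraries lay outside the range of the WT libraries.

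The prostate is a gland of secretory ducts. Luminal cells, kept in their differentiated state by androgen bound to the androgen receptor, pour proteins, zinc and citrate into the seminal fluid. They rest on basal cells, and around each mouse duct lies a sheath of smooth muscle with fibroblasts, vessels and nerves. Adenocarcinoma is a malignant growth of gland-forming epithelium, in which dividing cells replace resting secretory ones and the sheath around the ducts can be breached.

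Total counts on genes ran from 21751803 to 29730420 in WT and were 23527628 and 24457124 in PCa 1 and PCa 2. The Spearman correlation over tested genes was 0.923 to 0.961 among the WT libraries and 0.839 between the PCa libraries, and no pair of libraries agreed within sampling noise. Library numbers in the labels fall into 3 series, with WT 1 alone, WT 2 and WT 3 together, and all PIN and PCa libraries together, so that no WT library shares a series with a PCa library. The PIN libraries, of the same series as PCa, had Spearman correlations of 0.934 to 0.979 with the WT libraries and of 0.834 to 0.870 with the PCa libraries. WT 1 stood apart by genes of the seminal vesicle, the gland next to the prostate: the summed level of its 3 markers, in TPM, a level per exon length, was 33561 in WT 1, 0.175 in WT 2 and 0.362 in WT 3. The same sum was 7957 in PCa 1 and 486 in PCa 2. WT 2 stood apart by chaperones of the endoplasmic reticulum, with Hspa5 at 2364, 15456 and 2306 CPM (read counts scaled by library size, not by gene length) in WT 1, 2 and 3, and by little vessel RNA, with 45.3, 5.71 and 30.6 TPM over 4 endothelial markers. Among defining markers, 7 of luminal epithelium summed to 5071, 8707 and 5803 TPM in WT and to 6645 and 4239.6 TPM in PCa, so all 5 libraries held RNA of prostate epithelium. The human transgene is no feature of the table.

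Of 27036 genes in the table, the 14034 with more than 1 CPM in at least 2 of the 8 libraries were tested with edgeR's quasi-likelihood test, and calls needed both an adjusted p under 0.05 and a change of more than 1 on the log2 scale. In PCa, 611 genes were called higher (4.35% of those tested) and 587 lower (4.18%). Both PCa libraries lay above every WT library for 2486 genes (17.7%) and below every WT library for 2749 genes (19.6%). They lay on opposite sides of the WT range for 1709 genes (12.2%), and both lay inside it for 2297. Of the 611 genes called higher, 609 had both PCa libraries above WT, and of the 587 called lower, all 587 had both below. The 2 exceptions, named here because of their values, were Clic6, a chloride channel protein, at 1.78, 0.272 and 0.366 CPM in WT and 1.13 and 571 CPM in PCa, and Bex1, a small brain-expressed protein, at 2.67, 1.22 and 0.952 CPM in WT and 2.12 and 228 CPM in PCa. In both exceptions PCa 2 alone stood out. Without WT 1, 309 genes were called higher and 319 lower, without WT 2, 419 and 604, and without WT 3, 144 and 203. Without PCa 1, the counts were 1018 higher and 1459 lower, of which 445 and 489 were among the calls with all libraries. Without PCa 2 they were 703 and 686, of which 337 and 369 were. Both fits assume that the lone tumor varies like the other groups. Counts without each PIN library, which share the estimate of the spread, were 215 to 367 higher and 232 to 356 lower. A model of WT and PCa only called 67 higher and 63 lower, with 66 and 63 of them among the 611 and 587, so that most calls were lost in it, some of those that held with each library left out included.

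**Figure D1:**
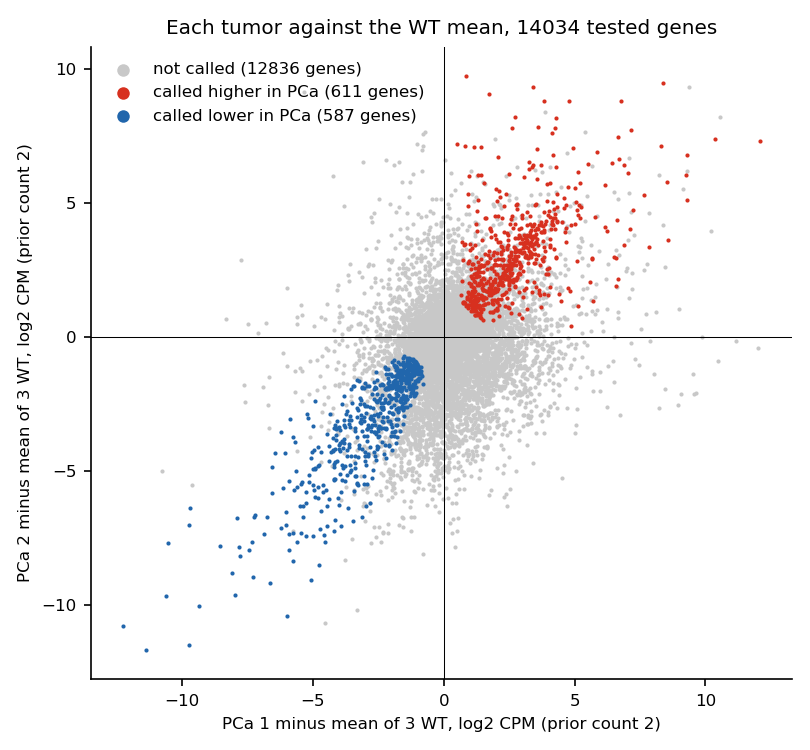
Each point is 1 of the 14034 tested genes, with the log2 CPM of PCa 1 minus the WT mean on the x axis and that of PCa 2 minus the WT mean on the y axis. The 611 genes called higher (red) lie in the upper right, apart from 2 with PCa 1 near 0, and the 587 called lower (blue) in the lower left, while the genes in the other corners, with tumors on opposite sides of WT, were not called.

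Genes of mitosis rose together in both tumors. All 26 tested members of the list of mitosis and spindle genes were called higher, against 4.35% of all tested genes, and for all 26 both PCa libraries lay above every WT library. The median log2 fold change of the list was 3.51, and that of all tested genes was 0.013. In bulk tissue, here and below, a change in the number of cells of a type and a change in RNA per cell cannot be told apart, so that fewer cells of a type and less RNA per cell would look alike. Cenpf, a kinetochore protein (chr1:191464478-191511965 in mm9), read 3.76, 4.44 and 3.33 CPM in WT 1, 2 and 3 and 67.6 and 73.8 CPM in PCa 1 and 2 (log2 fold change 4.20 ± 0.45 (SE), edgeR adjusted p = 0.00644). Cenpe, the kinesin that moves chromosomes along the spindle (chr3:134875527-134936504), read 2.08, 1.81 and 2.27 CPM in WT and 28.3 and 32.4 CPM in PCa (log2 fold change 3.88 ± 0.35 (SE), edgeR adjusted p = 0.00461). Ccnb2, a cyclin of the G2-to-M transition (chr9:70255496-70269361), read 1.48, 1.13 and 1.06 CPM in WT and 18.2 and 19.3 CPM in PCa (log2 fold change 3.93 ± 0.42 (SE), edgeR adjusted p = 0.00644). Kif23, a kinesin of cytokinesis (chr9:61765087-61794606), read 2.37, 1.27 and 1.10 CPM in WT and 27.4 and 31.3 CPM in PCa (log2 fold change 4.22 ± 0.59 (SE), edgeR adjusted p = 0.0101). In each of the 4 genes the tumors had nearly equal levels, many times that of the highest WT library. The PIN libraries read 4.20 to 11.8 CPM for Cenpf, all below both tumors. These 4 calls held with each of the 8 libraries left out. The number of mitosis genes called was 18 to 26 over those 8 fits, lowest without WT 3.

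The promoters of the mitosis genes are shown because the members moved together and because 2 short motifs recur in promoters of genes of late cell cycle. The NF-Y box reads CCAAT and, on the other strand, reads ATTGG. The cell cycle genes homology region, CHR, was searched as TTTGAA and, on the other strand, was searched as TTCAAA. Of the 26 members, 23 have an entry among the RefSeq promoters, in the GRCm38.p6 build, with 24 promoters of 250 bases before to 50 bases after the start. CCAAT on either strand occurred in 79.2% of these 24 promoters and in 37.4% of all 32851 promoters of the same length. TTTGAA on either strand occurred in 70.8% of them and in 17.9% of all, and both motifs in 66.7% and 6.95%, with 0 overlaps between matches of the 2 motifs. The 4 mitosis genes described above are printed 5′ to 3′ on the strand of the gene, from 170 bases before the start to 20 bases from the start on, with matches in capitals.
Cenpf, chr1:189688067-189688256, strand -: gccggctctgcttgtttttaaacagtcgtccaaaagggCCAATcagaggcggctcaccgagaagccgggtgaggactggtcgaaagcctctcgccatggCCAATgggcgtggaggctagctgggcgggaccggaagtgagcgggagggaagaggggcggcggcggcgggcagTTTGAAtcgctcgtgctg
Ccnb2, chr9:70421535-70421724, strand -: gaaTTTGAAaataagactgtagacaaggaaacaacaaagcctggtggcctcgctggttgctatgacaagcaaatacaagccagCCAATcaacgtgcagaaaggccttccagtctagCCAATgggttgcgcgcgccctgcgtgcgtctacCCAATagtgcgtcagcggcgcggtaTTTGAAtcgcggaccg
Kif23, chr9:61946780-61946969, strand -: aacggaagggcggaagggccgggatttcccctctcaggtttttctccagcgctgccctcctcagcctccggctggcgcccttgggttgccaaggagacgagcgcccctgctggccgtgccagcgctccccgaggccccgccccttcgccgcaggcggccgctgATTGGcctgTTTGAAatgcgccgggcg
Cenpe, chr3:135212393-135212582, strand +: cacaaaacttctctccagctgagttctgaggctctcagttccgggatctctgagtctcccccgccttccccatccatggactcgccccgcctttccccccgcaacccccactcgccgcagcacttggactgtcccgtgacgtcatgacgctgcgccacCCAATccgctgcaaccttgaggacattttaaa
Cenpf, Ccnb2 and Kif23 hold both motifs in this stretch, and Cenpe holds CCAAT and no TTTGAA. A match describes the letters and is no evidence of a bound factor.

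Genes of DNA replication followed at smaller size. Of 27 tested members, 18 were called higher (4.35% of all genes were) and 26 had both tumors above every WT library (17.7%), with a median log2 fold change of 1.72. Rrm2, the subunit of ribonucleotide reductase that supplies deoxynucleotides, read 8.95, 10.01 and 9.30 CPM in WT 1, 2 and 3 and 47.5 and 47.4 CPM in PCa 1 and 2 (log2 fold change 2.33 ± 0.23 (SE), edgeR adjusted p = 0.00578). Uhrf1, which brings the maintenance methyltransferase to newly copied DNA, read 4.99, 3.53 and 9.59 CPM in WT and 37.2 and 40.4 CPM in PCa (log2 fold change 2.68 ± 0.44 (SE), edgeR adjusted p = 0.0149). Both genes had tumors of nearly equal level, above every WT library, and both calls held with each library left out. Mcm3, part of the replicative helicase, read 4.89, 1.99 and 7.17 CPM in WT and 27.9 and 32.5 CPM in PCa (log2 fold change 2.68, edgeR adjusted p = 0.0210). The Mcm3 call was lost without WT 1 (edgeR adjusted p = 0.0584). Mcm10, a replication initiation factor, read 1.98, 0.453 and 2.12 CPM in WT and 9.17 and 12.8 CPM in PCa (log2 fold change 2.85, edgeR adjusted p = 0.0377). The Mcm10 call was lost without WT 1, WT 3, PIN 1, PIN 2, PIN 3 or PCa 2 (edgeR adjusted p up to 0.0877, without WT 3). The number of replication genes called was 9 without WT 1, 11 without WT 3, 12 without PIN 1, 12 without PIN 2, 10 without PIN 3 and 11 without PCa 2, and 16 to 18 without WT 2 or PCa 1. In the promoters of this list, 22 of 27 members had an entry, and of their 27 promoters 63% held CCAAT and 14.8% TTTGAA.

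Around the cycle, Ccna2, the cyclin of S phase and G2, read 5.24, 3.49 and 4.17 CPM in WT and 44.7 and 54.2 CPM in PCa (log2 fold change 3.52 ± 0.38 (SE), edgeR adjusted p = 0.00644), and its call held with each library left out. Foxm1, a transcription factor of the mitotic genes, read 5.14, 3.35 and 3.92 CPM in WT and 11.97 and 18.5 CPM in PCa (log2 fold change 1.88, edgeR adjusted p = 0.0201). The Foxm1 call was lost without WT 3 or PIN 3 (edgeR adjusted p up to 0.0758, without WT 3). Of the 18 tested cyclins, inhibitors and tumor suppressors, Ccna2 and Cdkn2a were the 2 called by edgeR, both higher (4.35% of all genes were). Both tumors lay above WT for 9 of the 18 and below it for 2 (17.7% and 19.6% of all genes). DESeq2 called 8 higher and 0 lower. Cdkn2a, which encodes the p16 and p19 tumor suppressors, had 2 reads over the WT libraries and 123 over the PCa libraries, a ratio of 71.1 with a 95% counting interval of 19.3 to 593. The Cdkn2a call was lost without WT 1, WT 2, WT 3, PIN 1 or PIN 3 (edgeR adjusted p up to 0.0912, without WT 3) and had no fit without PCa 1 or PCa 2. Cdkn1c, an inhibitor of cyclin-dependent kinases, parted the tumors, at 4.99, 3.58 and 3.88 CPM in WT and 3.57 and 50.1 CPM in PCa (edgeR adjusted p = 0.0949). Trp53, the p53 tumor suppressor, read 27.7, 23.7 and 38.8 CPM in WT and 36.8 and 44.5 CPM in PCa (edgeR adjusted p = 0.330) and was not called.

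Enzymes that write chromatin marks rose with the cycle genes in part. Of 14 tested polycomb and DNA methylation enzymes, 3 were called higher (4.35% of all genes were), 8 had both tumors above WT (17.7%) and 0 had both below (19.6%), with a median of 0.72. Ezh2, the methyltransferase of histone H3 lysine 27, read 14.7, 12.96 and 15.6 CPM in WT and 74.9 and 46.8 CPM in PCa (log2 fold change 2.07 ± 0.33 (SE), edgeR adjusted p = 0.0132). The Ezh2 call was lost without WT 3 (edgeR adjusted p = 0.0529). Dnmt1, the maintenance DNA methyltransferase, read 42.2, 41.3 and 58.4 CPM in WT and 105 and 151 CPM in PCa (log2 fold change 1.43 ± 0.24 (SE), edgeR adjusted p = 0.0163), a call that held with each library left out. Uhrf1 was the other call of this list, whereas Ezh1, the relative of Ezh2 that resting cells use, read 74.3, 67.6 and 73.1 CPM in WT and 86.0 and 56.1 CPM in PCa (edgeR adjusted p = 0.981).

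**Figure D2:**
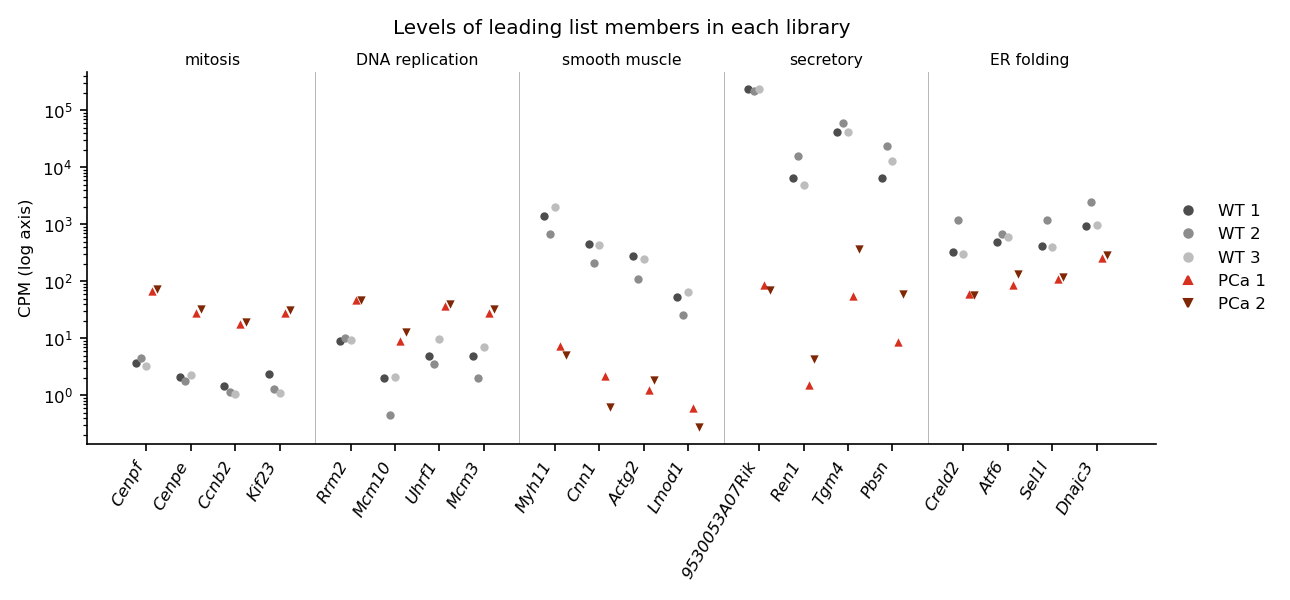
Each point is the CPM of a gene in 1 library on a log axis, with WT 1 to 3 as grey circles and PCa 1 and 2 as red and brown triangles, for 4 genes of each of 5 lists. The mitosis and replication genes have both tumors above all 3 WT libraries, and the smooth muscle, secretory and endoplasmic reticulum (ER) folding genes shown have both below.

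The 12 genes with the widest gap between the lower tumor and the highest WT library had 1.58 CPM or less in every WT library. Among them were 4 genes of epithelial defense. Defa24, an alpha-defensin of the kind made by intestinal Paneth cells (chr8:22844966-22845943 in mm9), had 0 reads in every WT library and 10.5 and 16.1 CPM in PCa 1 and 2, at least 307-fold higher when 3 reads over the WT group are taken as the floor (edgeR adjusted p = 0.00845). Defb9, a beta-defensin 146 kb away on the same chromosome (chr8:22992185-22995893), also had 0 reads in WT and 8.82 and 6.45 CPM in PCa, at least 178-fold higher (edgeR adjusted p = 0.0235). The Defb9 call was lost without WT 3, PIN 1 or PIN 3 (edgeR adjusted p up to 0.0688, without WT 3) and had no fit without PCa 1 or PCa 2. The Defa24 call held in the 6 fits that left out a WT or PIN library, and without PCa 1 or PCa 2 the gene did not pass the filter on low counts and had no fit. The alpha-defensins form a family of near-identical genes among which reads can be shared, so the member is uncertain. Dmbt1, a secreted scavenger receptor of mucosal surfaces, had 2 reads over WT and 131 and 17.1 CPM in PCa, a ratio of 2632 (95% counting interval 728 to 21739.9, edgeR adjusted p = 0.0108). The Dmbt1 call was lost without WT 3 (edgeR adjusted p = 0.0546). Wfdc12, an antimicrobial protein of the whey acidic family, read 0.198, 0 and 0.0366 CPM in WT and 574 and 21.3 CPM in PCa (log2 fold change 11.91, edgeR adjusted p = 0.0157). The Wfdc12 call was lost without WT 3 (edgeR adjusted p = 0.0745). 4930502E18Rik, an uncharacterized gene on chromosome X, had 0 reads in WT and 45.5 and 4.97 CPM in PCa, at least 600.2-fold higher (edgeR adjusted p = 0.0174). The 4930502E18Rik call was lost without WT 3 or PIN 3 (edgeR adjusted p up to 0.0648, without PIN 3) and had no fit without PCa 1 or PCa 2. Dmbt1, Wfdc12 and 4930502E18Rik were several times higher in PCa 1.

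The same 12 held a pair of oncofetal genes and a pair of neurotransmitter receptor genes, and Sp6 had the widest gap of all. H19, an imprinted noncoding RNA of fetal tissues, read 0.395, 0.181 and 0.110 CPM in WT 1, 2 and 3 and 178 and 31.5 CPM in PCa 1 and 2 (log2 fold change 8.85 ± 0.94 (SE), edgeR adjusted p = 0.00644). Hmga2, a chromatin protein of embryonic growth, read 0.0989, 0.181 and 0.0366 CPM in WT and 17.1 and 30.0 CPM in PCa (log2 fold change 7.77 ± 0.95 (SE), edgeR adjusted p = 0.00791). Gabra4, a subunit of the GABA-A receptor (chr5:71960973-72049547 in mm9), read 1.58, 0.680 and 1.17 CPM in WT 1, 2 and 3 and 100.05 and 105 CPM in PCa 1 and 2 (log2 fold change 6.48 ± 0.47 (SE), edgeR adjusted p = 0.00325). The neighbouring Gabrb1 (chr5:72091171-72529628), 41.6 kb away, read 0.198, 0.0453 and 0.110 CPM in WT and 23.8 and 12.8 CPM in PCa (log2 fold change 7.24 ± 0.74 (SE), edgeR adjusted p = 0.00602). Gabra4 had nearly the same level in both tumors, and the PIN libraries read 1.32 to 3.00 CPM for it. Sp6, a transcription factor of tooth and skin epithelium, read 1.09, 0.181 and 0.439 CPM in WT and 176 and 385 CPM in PCa (log2 fold change 8.96 ± 1.17 (SE), edgeR adjusted p = 0.00865). Lrp2, the endocytic receptor megalin, read 0.742, 1.04 and 0.439 CPM in WT and 85.9 and 355 CPM in PCa (log2 fold change 8.22 ± 1.12 (SE), edgeR adjusted p = 0.00955). The Gabra4, Sp6 and Lrp2 calls held with each library left out. The H19, Hmga2 and Gabrb1 calls held in the 6 fits that left out a WT or PIN library, and these genes had no fit without PCa 1 or PCa 2. Abcb5, a drug efflux transporter, read 0.247, 0 and 0.0366 CPM in WT and 14.4 and 14.1 CPM in PCa (log2 fold change 7.25, edgeR adjusted p = 0.0128). The Abcb5 call was lost without WT 3 (edgeR adjusted p = 0.0595). The PIN libraries read 23.97, 4.13 and 14.7 CPM for Abcb5, so that PIN 1 and PIN 3 reached the level of the tumors.

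Of the list of prostate secretory proteins, 9530053A07Rik, Tgm4 and Pbsn, abundant in normal prostate, fell in both tumors. 9530053A07Rik (chr7:28914485-28949830 in mm9), an uncharacterized gene, took 16.4% to 22.1% of all counts in the WT libraries and 0.0114% and 0.00832% in PCa 1 and PCa 2. It read 237910, 217049 and 234548 CPM in WT 1, 2 and 3 and 86.4 and 69.8 CPM in PCa 1 and 2 (log2 fold change -11.52 ± 1.28 (SE), edgeR adjusted p = 0.00677), with 129192 CPM or more in every PIN library. Tgm4, the transglutaminase that clots the seminal plug, read 42279, 59729 and 41969 CPM in WT 1, 2 and 3 and 56.0 and 373 CPM in PCa 1 and 2 (log2 fold change -7.81 ± 1.19 (SE), edgeR adjusted p = 0.0123). Pbsn, probasin, the classical androgen-dependent secretion of the mouse prostate, read 6552, 23968 and 12752 CPM in WT and 8.53 and 60.8 CPM in PCa (log2 fold change -8.70 ± 1.33 (SE), edgeR adjusted p = 0.0123). In all 3 genes both tumors lay far below the lowest WT library, and PCa 2 kept more Tgm4 and Pbsn RNA than PCa 1. The 3 calls held with each library left out and were lost in the model of WT and PCa only, those of 9530053A07Rik and Tgm4 also with edgeR's newer quasi-likelihood method. Over these alternatives the edgeR adjusted p reached 0.344 for 9530053A07Rik, 0.0920 for Tgm4 and 0.0778 for Pbsn. Ren1, renin, which the mouse prostate also makes, read 6547, 15589 and 4838 CPM in WT and 1.54 and 4.42 CPM in PCa (log2 fold change -11.56, edgeR adjusted p = 0.0256). The Ren1 call was lost without WT 1, WT 3, PIN 1 or PCa 2 (edgeR adjusted p up to 0.0661, without WT 3). Strain 129 carries an additional renin gene whose reads would fall on Ren1, and the part of the strain mix in its level was not tested.

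Members of the list of prostate secretory proteins lay on either side of WT or did not separate the groups. Of 17 tested members, 5 were called lower (4.18% of all genes were), 0 were called higher, 2 had both tumors above WT (17.7% of all genes did) and 6 had both below (19.6%). The median fitted log2 fold change was -1.67, but against the WT mean the median was 1.61 in PCa 1, where 5 members lay above WT and 6 below, and -1.23 in PCa 2. The summed level of the list was 210108, 176938 and 165631 TPM in WT and 61485 and 9732 TPM in PCa, lower in both tumors and least in PCa 2. The 2 with both tumors above WT were Gpx3, a secreted glutathione peroxidase, at 286, 78.8 and 58.5 CPM in WT and 901 and 338 CPM in PCa, and Defb50, a beta-defensin, at 293, 93.4 and 90.6 CPM in WT and 2664 and 484 CPM in PCa, neither called by edgeR. DESeq2 called 2 members higher and 6 lower. Beside 9530053A07Rik, Tgm4, Pbsn and Ren1, the fifth call was Azgp1, a zinc-binding secreted glycoprotein, at 438, 378 and 279 CPM in WT and 97.4 and 131 CPM in PCa (log2 fold change -1.67, edgeR adjusted p = 0.0235). Without WT 1 the list had 3 calls, and without PIN 1 also 3. Sbp, a spermine-binding protein, read 9552, 0.0906 and 0 CPM in WT and 5784 and 76.2 CPM in PCa, and Spink3, a protease inhibitor of seminal fluid, read 3596, 0 and 0 CPM in WT and 0.772 and 0.103 CPM in PCa, and both were high in WT 1 and near 0 in WT 2 and WT 3. Of 8 tested seminal vesicle genes, 0 were called by edgeR, 0 by DESeq2 and 1 had an unadjusted p under 0.05. Their summed level was 37726, 1.55 and 2.57 TPM in WT and 15666 and 4560.5 TPM in PCa, so that PCa 1, PCa 2 and WT 1 all held such RNA and WT 2 and WT 3 nearly none. Its part in the levels of the secretory genes was not tested. Of 13 tested whey acidic and antimicrobial proteins, Wfdc12 was the 1 called (4.35% of all genes were called higher), and 9 had PCa 1 above WT against 2 with PCa 2 above (32.9% and 31.9% of all genes).

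Beyond known secretions, the genes with the widest fall were expressed at moderate level in every WT library. Gm10935, 27.0 kb from 9530053A07Rik on chromosome 7, read 501, 105 and 581 CPM in WT and 0.290 and 0.0343 CPM in PCa (log2 fold change -11.19, edgeR adjusted p = 0.00709). Fgl1, a secreted fibrinogen-like protein, read 279, 1025 and 474 CPM in WT and 0.708 and 0.411 CPM in PCa (log2 fold change -10.03 ± 0.90 (SE), edgeR adjusted p = 0.00461). 9530003J23Rik read 1149, 2512 and 2443 CPM in WT and 6.89 and 4.22 CPM in PCa (log2 fold change -8.52, edgeR adjusted p = 0.00461). In these 3 genes the WT libraries differed by up to several times among themselves and still lay far above both tumors. Ms4a5, of a family of membrane-spanning proteins, read 168, 107 and 270.4 CPM in WT and 0.0322 and 0.137 CPM in PCa (log2 fold change -11.01, edgeR adjusted p = 0.00461). Aass, the first enzyme of lysine breakdown, read 54.2, 62.8 and 74.5 CPM in WT 1, 2 and 3 and 0.322 and 0.240 CPM in PCa 1 and 2 (log2 fold change -7.80 ± 0.35 (SE), edgeR adjusted p = 0.000481). Adarb2, a relative of the RNA-editing deaminases, had 3 reads over both tumors and 33.5, 23.6 and 37.4 CPM in WT, a ratio of WT to PCa of 641 (95% counting interval 219 to 3110.2, edgeR adjusted p = 0.000932). Gpr37l1, an orphan receptor best known from glia, had 0 reads in both tumors and 23.7, 10.8 and 18.96 CPM in WT, at least 357-fold lower in PCa (edgeR adjusted p = 0.00593). Pcp4l1, a small calmodulin-binding protein, read 152, 175 and 105 CPM in WT and 0.483 and 0.103 CPM in PCa (log2 fold change -8.90, edgeR adjusted p = 0.0116). All 8 calls held with each library left out.

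Smooth muscle genes fell in both tumors. Of 18 tested contractile genes, 15 were called lower (4.18% of all genes were) and 17 had both tumors below every WT library (19.6%), with a median log2 fold change of -5.92. Myh11, the smooth muscle myosin heavy chain, read 1424, 680.1 and 2054 CPM in WT 1, 2 and 3 and 7.24 and 5.04 CPM in PCa 1 and 2 (log2 fold change -7.82 ± 0.72 (SE), edgeR adjusted p = 0.00461). Cnn1, calponin, read 454, 207 and 434 CPM in WT and 2.16 and 0.617 CPM in PCa (log2 fold change -8.03 ± 0.81 (SE), edgeR adjusted p = 0.00593). Actg2, gamma smooth muscle actin, read 275, 109.7 and 244 CPM in WT and 1.26 and 1.89 CPM in PCa (log2 fold change -7.06 ± 0.71 (SE), edgeR adjusted p = 0.00593), and Lmod1, which nucleates actin filaments, read 54.0, 25.5 and 65.9 CPM in WT and 0.611 and 0.274 CPM in PCa (log2 fold change -6.75 ± 0.64 (SE), edgeR adjusted p = 0.00461). WT 2, the WT library with the least muscle RNA, still stood well above both tumors in all 4. The 4 calls held with each library left out. The list had 13 to 16 calls lower over the fits that left out a WT or PIN library. The 5 defining markers summed to 3887, 1359 and 4518 TPM in WT and 41.0 and 27.7 TPM in PCa. Synm, an intermediate filament protein, was the member outside this pattern, at 219.9, 101.05 and 299 CPM in WT and 121 and 165 CPM in PCa (log2 fold change -0.53). A CArG box, the site of serum response factor, occurred in 1 of 15 promoters of 14 members (6.67%) and in 1.63% of all promoters, counted in the same 300-base window.

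Most of the few skeletal muscle genes tested also fell. Of 5 tested, 4 were called lower (4.18% of all genes were). Acta1, skeletal actin, read 187, 61.6 and 162 CPM in WT 1, 2 and 3 and 0.257 and 0.480 CPM in PCa 1 and 2 (log2 fold change -8.52 ± 1.06 (SE), edgeR adjusted p = 0.00791), and Ckm, muscle creatine kinase, had 2 reads over both tumors and 9.15, 2.99 and 6.48 CPM in WT, a ratio of WT to PCa of 185 (95% counting interval 51.0 to 1534). The fifth member, Mb, myoglobin, went the other way without being called, at 0.445, 0.0906 and 0.183 CPM in WT and 0.965 and 5.11 CPM in PCa (edgeR adjusted p = 0.0728). Of 8 tested erythroid and nerve genes, 2 were called lower (4.18% of all genes were) and 2 had both tumors below WT (19.6% did). Mbp, myelin basic protein, read 73.1, 85.9 and 61.1 CPM in WT and 29.3 and 20.1 CPM in PCa (log2 fold change -1.57, edgeR adjusted p = 0.0138). The Acta1, Ckm and Mbp calls held with each library left out. Of 6 tested neuroendocrine genes, 1 was called lower (4.18% of all genes were). This was Eno2, an enolase of neurons and neuroendocrine cells, which read 6.13, 4.21 and 3.37 CPM in WT and 0.965 and 0.446 CPM in PCa (log2 fold change -2.68, edgeR adjusted p = 0.0300). The Eno2 call was lost without WT 1, WT 3, PIN 1, PIN 2, PIN 3 or PCa 2 (edgeR adjusted p up to 0.0704, without WT 3). The neuroendocrine transcription factor Insm1 had 0 reads in all 5 libraries, and 4 neuroendocrine markers summed to 4.49 TPM or less in each.

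Fibroblast genes gave few edgeR calls. Of 20 tested matrix and fibroblast genes, edgeR called 1 lower and 0 higher, and 4 had both tumors below WT, near the 4.18% and 19.6% of all genes. DESeq2 called 5 lower and 0 higher. In PCa 2, 17 of the 20 lay below every WT library, and in PCa 1, 4 did (36.0% and 32.3% of all genes). Against the WT mean on the log2 scale, the median was -0.14 in PCa 1 and -2.27 in PCa 2. Postn, periostin, was the call, at 46.5, 43.6 and 65.5 CPM in WT and 17.9 and 10.8 CPM in PCa (log2 fold change -1.85, edgeR adjusted p = 0.0417). The Postn call was lost without WT 1, WT 2, WT 3, PIN 1, PIN 3 or PCa 2 (edgeR adjusted p up to 0.118, without PCa 2). Lum, the collagen-binding proteoglycan lumican, read 21.9995, 15.7 and 20.02 CPM in WT and 49.7 and 0.549 CPM in PCa (edgeR adjusted p = 0.866), above WT in PCa 1 and far below it in PCa 2. Ogn, osteoglycin, read 30.5, 38.5 and 29.1 CPM in WT and 43.5 and 0.0686 CPM in PCa (edgeR adjusted p = 0.825), with the same arrangement. Of 13 tested endothelial genes, Ly6c1 was called higher and Emcn lower (4.35% and 4.18% of all genes were), and 8 had PCa 2 above WT (31.9%). Ly6c1, a surface protein of vessels and monocytes, read 10.4, 3.63 and 4.94 CPM in WT and 99.1 and 94.2 CPM in PCa (log2 fold change 3.94, edgeR adjusted p = 0.0370). The Ly6c1 call was lost without WT 1, WT 2, WT 3, PIN 3 or PCa 2 (edgeR adjusted p up to 0.122, without WT 3). Emcn, endomucin, read 21.7, 54.2 and 34.3 CPM in WT and 9.20 and 11.1 CPM in PCa (log2 fold change -1.85, edgeR adjusted p = 0.0371). The Emcn call was lost without WT 2, WT 3, PIN 1, PIN 2, PIN 3, PCa 1 or PCa 2 (edgeR adjusted p up to 0.0921, without WT 3). The Emcn level was highest in WT 2, the library with the lowest Pecam1, Cdh5, Kdr and Vwf.

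Most luminal identity genes were not called, while several markers of proximal, progenitor-like luminal cells rose. Of 16 tested luminal genes, 1 was called lower (4.18% of all genes were) and 0 higher (4.35%), with a median of -0.28. Krt8, a keratin of luminal cells, read 198, 975 and 209 CPM in WT and 453 and 333 CPM in PCa (edgeR adjusted p = 0.863), and Cdh1, E-cadherin, read 391, 1182 and 498 CPM in WT and 801 and 334 CPM in PCa (edgeR adjusted p = 0.795). Ehf, an epithelial ETS factor, was the call, at 1387, 1011 and 2045 CPM in WT and 481 and 215 CPM in PCa (log2 fold change -2.09, edgeR adjusted p = 0.0417). The Ehf call was lost without WT 1, WT 3, PIN 1, PIN 2, PIN 3 or PCa 2 (edgeR adjusted p up to 0.113, without WT 3). Of 12 proximal luminal progenitor markers, which label luminal cells near the urethra, 3 were called higher (4.35% of all genes were). Of the 12, 9 had both tumors above every WT library (17.7% of all genes did), with a median of 3.58. Aldh1a3, a retinoic acid-making enzyme, read 6.67, 10.8 and 3.95 CPM in WT 1, 2 and 3 and 58.8 and 54.4 CPM in PCa 1 and 2 (log2 fold change 2.99 ± 0.47 (SE), edgeR adjusted p = 0.0129), and its call held with each library left out. Ly6a, the surface antigen Sca-1, read 38.8, 22.6 and 27.0 CPM in WT and 481 and 313 CPM in PCa (log2 fold change 3.75, edgeR adjusted p = 0.0250). The Ly6a call was lost without WT 1, WT 2, WT 3 or PIN 3 (edgeR adjusted p up to 0.0922, without WT 3). Krt7, a keratin of ductal epithelium, read 18.8, 7.88 and 3.92 CPM in WT and 816 and 31.6 CPM in PCa (log2 fold change 5.38, edgeR adjusted p = 0.0468). The Krt7 call was lost without WT 1, WT 2, WT 3, PIN 1, PIN 2, PIN 3 or PCa 1 (edgeR adjusted p up to 0.254, without PCa 1). Psca, prostate stem cell antigen, read 4.35, 0 and 0.146 CPM in WT and 235 and 19.6 CPM in PCa (edgeR adjusted p = 0.0875), with both tumors above WT, and was not called. The list had 1 call without WT 1, without WT 2, without WT 3 or without PIN 3. Of 6 tested urothelial genes, edgeR called 1 higher and 0 lower (4.35% and 4.18% of all genes were), and DESeq2 called 1 higher and 3 lower. Both tumors lay below WT for 3 of the 6 (19.6% of all genes did). The 6 genes summed to 564, 341 and 433 TPM in WT and 204 and 506 TPM in PCa. Of these, the 3 defining markers summed to 251, 16.5 and 13.3 TPM in WT and 193 and 419 TPM in PCa, and the part of urothelial RNA in the levels of the proximal luminal markers was not tested.

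Basal genes divided the tumors. Of 14 tested basal genes, 0 were called by edgeR in either direction, 1 was called higher by DESeq2 and 1 had an unadjusted p under 0.05, while 7 lay above WT in 1 tumor and below it in the other (12.2% of all genes did). Krt15, a basal keratin, read 57.3, 103 and 71.0 CPM in WT 1, 2 and 3 and 368 and 1.13 CPM in PCa 1 and 2 (edgeR adjusted p = 0.622). Krt5, the keratin that defines basal cells, read 68.2, 28.1 and 65.6 CPM in WT and 117 and 4.70 CPM in PCa (edgeR adjusted p = 0.940). Col17a1, the collagen of hemidesmosomes, read 21.9, 30.4 and 18.4 CPM in WT and 135 and 0.377 CPM in PCa (edgeR adjusted p = 0.527). PCa 1 was above and PCa 2 below WT in all 3. Trp63, the p63 transcription factor of basal cells, differed less, at 25.5, 30.2 and 36.2 CPM in WT and 46.0 and 21.3 CPM in PCa (edgeR adjusted p = 0.824). Summed, Krt5, Krt14, Krt15 and Trp63 gave 239.9, 263 and 275 TPM in the WT libraries, against 1169 TPM for PCa 1 and 21.8 TPM for PCa 2. All 14 basal genes summed to 664, 881 and 706 TPM in WT and 1997 and 587 TPM in PCa, so that over the whole list PCa 2 lay much nearer to WT, and 2 members lay above WT in PCa 2 and 9 below.

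The folding machinery of the endoplasmic reticulum, which a secreting cell keeps at high level, fell in part. Of 27 tested members, edgeR called 7 lower (4.18% of all genes were) and 0 higher, DESeq2 called 20 lower and 0 higher, and 22 had both tumors below every WT library (19.6% of all genes did), with a median of -2.09. Atf6, a sensor of unfolded protein, read 488, 679 and 603 CPM in WT 1, 2 and 3 and 87.6 and 134 CPM in PCa 1 and 2 (log2 fold change -2.41 ± 0.32 (SE), edgeR adjusted p = 0.00865), and its call held with each library left out. Creld2, a secreted ER stress protein, read 328, 1198 and 305 CPM in WT and 59.8 and 56.6 CPM in PCa (log2 fold change -3.39, edgeR adjusted p = 0.0259). The Creld2 call was lost without PIN 1, PIN 3 or PCa 2 (edgeR adjusted p up to 0.0690, without PCa 2). Sel1l, an adaptor of ER-associated degradation, read 422, 1203 and 399 CPM in WT and 108 and 121 CPM in PCa (log2 fold change -2.55, edgeR adjusted p = 0.0360). The Sel1l call was lost without WT 3, PIN 1, PIN 2, PIN 3, PCa 1 or PCa 2 (edgeR adjusted p up to 0.0810, without PCa 2). Dnajc3, an ER co-chaperone, read 921, 2446 and 994 CPM in WT and 256 and 291 CPM in PCa (log2 fold change -2.41, edgeR adjusted p = 0.0294). The Dnajc3 call was lost without WT 3, PIN 1, PIN 2, PIN 3, PCa 1 or PCa 2 (edgeR adjusted p up to 0.0651, without PIN 3). Without WT 2, the library with the high chaperones, 9 members were called, while without PIN 1 or PIN 3 there was 1 call, without WT 3 or PCa 2 there were 3, and without PIN 2 there were 4. Xbp1, the transcription factor that builds the secretory pathway, read 238, 369 and 211 CPM in WT and 246 and 311 CPM in PCa (log2 fold change 0.032).

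Metabolic lists gave few calls, and those named here were enzymes and a zinc exporter. Asns, asparagine synthetase, read 251, 534 and 227 CPM in WT 1, 2 and 3 and 25.9 and 40.6 CPM in PCa 1 and 2 (log2 fold change -3.34 ± 0.54 (SE), edgeR adjusted p = 0.0138). Phgdh, the first enzyme of serine synthesis, read 121, 153 and 89.1 CPM in WT and 18.9 and 12.2 CPM in PCa (log2 fold change -2.96 ± 0.38 (SE), edgeR adjusted p = 0.00816). Both tumors lay below every WT library for both enzymes, and the calls held with each library left out. They were the 2 calls among 15 genes of glutamine and amino acid transport (4.18% of all genes were called lower). Of 21 genes of zinc, citrate and polyamine metabolism, 10 had both tumors below WT (19.6% of all genes did) and 2 both above (17.7%). In this list 1 was called higher and 1 lower (4.35% and 4.18% of all genes). Slc30a4, a zinc exporter, read 23.8, 21.3 and 18.2 CPM in WT and 74.3 and 284 CPM in PCa (log2 fold change 3.09, edgeR adjusted p = 0.0162). The Slc30a4 call was lost without WT 3 (edgeR adjusted p = 0.0708). Odc1, ornithine decarboxylase, the entry to polyamine synthesis, read 49.8, 54.7 and 39.1 CPM in WT and 21.6 and 20.8 CPM in PCa (log2 fold change -1.17, edgeR adjusted p = 0.0248). The Odc1 call was lost without WT 1, PIN 1, PIN 2, PIN 3 or PCa 2 (edgeR adjusted p up to 0.0581, without WT 1). Pfkl, the liver-type phosphofructokinase, read 40.2, 25.8 and 27.5 CPM in WT and 65.6 and 113 CPM in PCa (log2 fold change 1.52, edgeR adjusted p = 0.0243). It was the 1 call among 17 genes of glycolysis (4.35% of all genes were called higher). The Pfkl call was lost without WT 2, WT 3, PIN 1, PIN 3 or PCa 2 (edgeR adjusted p up to 0.0877, without WT 3). Gsta3, a glutathione transferase, read 6.43, 2.72 and 7.87 CPM in WT and 27.6 and 216 CPM in PCa (log2 fold change 4.42, edgeR adjusted p = 0.0228). The Gsta3 call was lost without WT 1, WT 2, WT 3 or PIN 3 (edgeR adjusted p up to 0.0729, without WT 3). Glul, glutamine synthetase, was the most counted gene of PCa 2, at 510.2, 841 and 592 CPM in WT 1, 2 and 3 and 523 and 11985 CPM in PCa 1 and 2 (edgeR adjusted p = 0.0823), and PCa 1 lay inside the range of WT.

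Among genes of the androgen axis, calls were few. Fkbp5, a chaperone of steroid receptors and an androgen target, read 81.9, 104 and 52.0 CPM in WT 1, 2 and 3 and 1093 and 236 CPM in PCa 1 and 2 (log2 fold change 3.07, edgeR adjusted p = 0.0455), with 112 to 454 CPM in PIN. The Fkbp5 call was lost without WT 1, WT 2, WT 3, PIN 1, PIN 2, PIN 3 or PCa 1 (edgeR adjusted p up to 0.139, without WT 3). Fkbp5, called higher, and Pbsn, called lower, were the 2 calls among 18 tested androgen genes. These counts lie near the 4.35% and 4.18% of all genes called higher and lower. Of the 18, 4 had both tumors above and 4 both below WT (17.7% and 19.6% of all genes did), with a median of 0.27. Pmepa1, an androgen-induced regulator of TGF-beta signaling, read 17.8, 5.62 and 7.47 CPM in WT and 160.2 and 4.66 CPM in PCa (edgeR adjusted p = 0.133), and Steap4, a metalloreductase, read 19.03, 8.25 and 10.1 CPM in WT and 63.9 and 4.22 CPM in PCa (edgeR adjusted p = 0.331). In both, PCa 1 alone was high. Osr1, whose promoter drives Cre, read 4.15, 1.72 and 2.64 CPM in WT and 0.740 and 0.549 CPM in PCa (log2 fold change -2.13, edgeR adjusted p = 0.0513), below WT in both tumors and not called.

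The Hox clusters, whose genes set position along the body axis, split by cluster. Of 11 tested HoxA genes, 5 were called higher (4.35% of all genes were) and 8 had both tumors above WT (17.7%), and their median log2 fold change was 2.62. Of 8 tested HoxB genes, 6 were called lower (4.18% of all genes were) and all 8 had both tumors below (19.6%), with a median of -3.04. Of 7 tested HoxD genes, edgeR called 0 and DESeq2 called 3 lower, and 3 had an unadjusted edgeR p under 0.05, all lower. In HoxD 3 genes had both tumors below WT (19.6% of all genes did) and the median was -1.37, with medians of -0.15 in PCa 1 and -3.97 in PCa 2 against the WT mean. Hoxb6 (chr11:96153790-96162883 in mm9) read 33.8, 19.8 and 28.2 CPM in WT 1, 2 and 3 and 2.09 and 1.47 CPM in PCa 1 and 2 (log2 fold change -3.93 ± 0.37 (SE), edgeR adjusted p = 0.00461), and Hoxb5 (chr11:96163909-96167434) read 20.5, 10.8 and 19.9 CPM in WT and 2.06 and 1.06 CPM in PCa (log2 fold change -3.45 ± 0.51 (SE), edgeR adjusted p = 0.0108). Both fell about alike in the tumors, and both calls held with each library left out. Hoxb3 read 13.002, 3.72 and 11.8 CPM in WT and 1.06 and 0.789 CPM in PCa (log2 fold change -3.35, edgeR adjusted p = 0.0259). The Hoxb3 call was lost without WT 1, WT 3, PIN 3 or PCa 2 (edgeR adjusted p up to 0.0795, without WT 3). Hoxa5 (chr6:52151753-52154586) read 4.40, 2.63 and 2.42 CPM in WT and 15.1 and 47.6 CPM in PCa (log2 fold change 3.32 ± 0.60 (SE), edgeR adjusted p = 0.0203). The Hoxa5 call was lost without WT 2 or WT 3 (edgeR adjusted p up to 0.0791, without WT 3). Hoxa9 read 31.6, 33.0 and 23.02 CPM in WT and 56.3 and 207 CPM in PCa (log2 fold change 2.17, edgeR adjusted p = 0.0434). The Hoxa9 call was lost without WT 1, WT 2, WT 3, PIN 1, PIN 2, PIN 3 or PCa 2 (edgeR adjusted p up to 0.151, without PCa 2). PCa 2 stood above PCa 1 in every HoxA gene plotted. Over all clusters, Hox genes called higher numbered 2 without WT 1, 0 without WT 2 or WT 3, 2 without PIN 1 or PIN 2, 1 without PIN 3 or PCa 2 and 8 without PCa 1. Those called lower numbered 2 without WT 1, WT 3 or PIN 3, 3 without PIN 1 or PCa 2, 4 without PIN 2 and 11 without PCa 1. Hoxb13, the prostate Hox gene of that cluster, read 291, 178 and 213 CPM in WT and 97.2 and 14.02 CPM in PCa (edgeR adjusted p = 0.114). The strand setting of the counting is not given, so reads of Hox genes and of their antisense transcripts cannot be told apart.

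**Figure D3:**
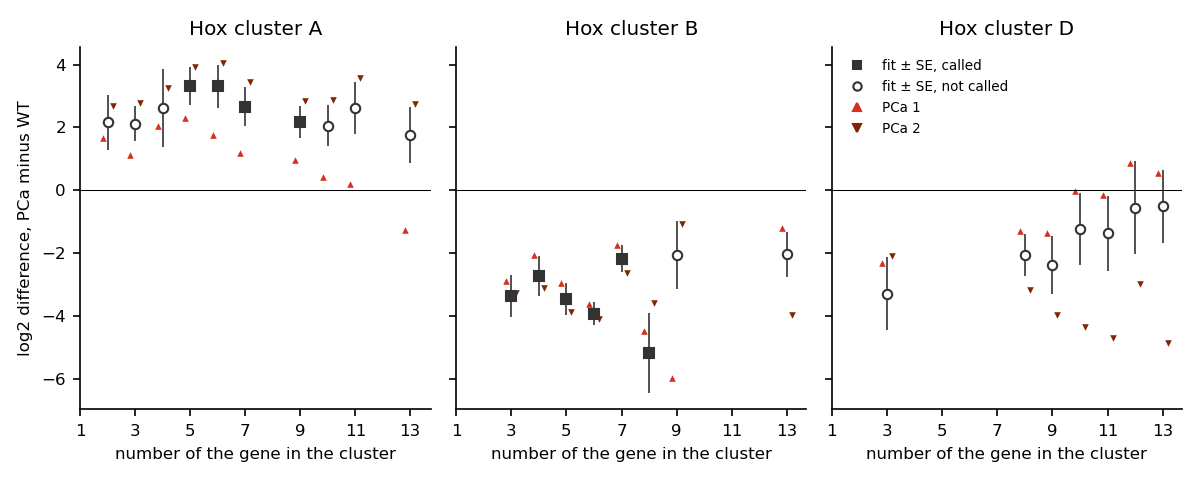
Log2 difference of PCa minus WT for the tested Hox genes, less 1 HoxA gene, ordered by its number in the cluster, as the fitted value with its standard error (squares called, open circles not called) and as PCa 1 and PCa 2 against the WT mean (triangles). All HoxA values fitted and shown lie above 0 and all fitted HoxB and HoxD values below, and in HoxD the tumors lie far apart from number 10 on.

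Among secreted Wnt ligands and regulators, Wnt4, Wnt10a, Dkk2 and Notum were called higher and Rspo2 and Rspo3 lower. The antagonists Sfrp1 and Frzb lay above WT in PCa 1 and below it in PCa 2. Many Wnt target genes were high in PCa 2 alone without being called by edgeR. Of 33 tested ligands, receptors and antagonists, 5 were called higher and 2 lower (4.35% and 4.18% of all genes were), with a median of -0.078. Both tumors lay above WT for 5 of the 33 and below it for 7, against 17.7% and 19.6% of all genes. The 5 called higher were Wnt4, Wnt10a, the receptor gene Fzd6, Dkk2 and Notum. Wnt4, a ligand, read 8.95, 3.35 and 7.06 CPM in WT 1, 2 and 3 and 147 and 173 CPM in PCa 1 and 2 (log2 fold change 4.63 ± 0.81 (SE), edgeR adjusted p = 0.0186). The Wnt4 call was lost without WT 3 (edgeR adjusted p = 0.0747). Dkk2, a secreted antagonist, read 4.05, 0.634 and 2.34 CPM in WT and 28.3 and 35.8 CPM in PCa (log2 fold change 3.77, edgeR adjusted p = 0.0235). The Dkk2 call was lost without WT 3 or PIN 3 (edgeR adjusted p up to 0.0863, without WT 3). Notum, a secreted enzyme that inactivates Wnt, read 3.26, 1.04 and 2.82 CPM in WT and 12.5 and 150.2 CPM in PCa (log2 fold change 5.10, edgeR adjusted p = 0.0228). The Notum call was lost without WT 1, WT 2, WT 3 or PIN 3 (edgeR adjusted p up to 0.0812, without WT 3). The Wnt10a call was lost without WT 1, WT 2, WT 3, PIN 1, PIN 2, PIN 3 or PCa 2 (edgeR adjusted p up to 0.110, without WT 3). Rspo2 and Rspo3, R-spondins that amplify Wnt signals, fell. Rspo2 had 1 read over both tumors and 6.58, 1.95 and 5.09 CPM in WT, a ratio of WT to PCa of 273 (95% counting interval 48.6 to 10799.8, edgeR adjusted p = 0.0118), and its call held with each library left out. Rspo3 read 23.4, 11.9 and 31.4 CPM in WT and 1.80 and 0.103 CPM in PCa (log2 fold change -4.53, edgeR adjusted p = 0.0363). The Rspo3 call was lost without WT 1, WT 3, PIN 1, PIN 2 or PIN 3 (edgeR adjusted p up to 0.0959, without WT 3). Rspo1 read 0.989, 2.54 and 0.329 CPM in WT and 1.64 and 0 CPM in PCa and was not called (edgeR adjusted p = 0.815). The count of ligand and receptor genes called higher was 2 without WT 1, WT 2 or PIN 3, 0 without WT 3, 3 without PIN 1 and 9 without PCa 1.

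Of 21 tested target genes of Wnt and beta-catenin, edgeR called 3 higher and 0 lower (4.35% and 4.18% of all genes were). DESeq2 called 10 of the 21 higher and 0 lower, against 1311 and 1176 of all 14034 genes. Of the 21, 8 had both tumors above WT (17.7%), and 9 had the tumors on opposite sides of it (12.2% of all genes did). Relative to the WT mean, the median of these targets was -0.43 in PCa 1 and 2.41 in PCa 2 on the log2 scale. Axin2, a negative-feedback target, read 101.5, 150.3 and 144 CPM in WT 1, 2 and 3 and 42.7 and 681 CPM in PCa 1 and 2 (edgeR adjusted p = 0.322). Lgr5, the R-spondin receptor of stem cells, read 28.9, 59.995 and 46.5 CPM in WT and 0.129 and 321 CPM in PCa (edgeR adjusted p = 0.523). Tcf4, a helix-loop-helix factor whose symbol is also an alias of Tcf7l2, read 67.5, 46.1 and 93.4 CPM in WT and 72.4 and 1539 CPM in PCa (edgeR adjusted p = 0.0657), and Ccnd1, cyclin D1, read 126, 56.9 and 143 CPM in WT and 163 and 754 CPM in PCa (edgeR adjusted p = 0.0845). All 4 were high in PCa 2, and Axin2 and Lgr5 lay below WT in PCa 1. Ctnnb1, beta-catenin itself, read 463, 582 and 474 CPM in WT and 733 and 1244 CPM in PCa (edgeR adjusted p = 0.0876), and Myc read 57.9, 67.1 and 59.1 CPM in WT and 45.6 and 73.8 CPM in PCa (log2 fold change -0.04, edgeR adjusted p = 0.943). Apcdd1, a membrane-bound Wnt inhibitor, was the third call beside Dkk2 and Notum, at 26.1, 3.44 and 15.8 CPM in WT and 48.3 and 1215 CPM in PCa (log2 fold change 5.39, edgeR adjusted p = 0.0412). The Apcdd1 call was lost without WT 1, WT 2, WT 3, PIN 1, PIN 2, PIN 3 or PCa 2 (edgeR adjusted p up to 0.218, without PCa 2). Of these targets 15 were called without PCa 1, 2 without PCa 2 or PIN 2, 1 without WT 1 or WT 2, and 0 without WT 3 or PIN 3.

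Other signaling lists gave few calls. In the IGF axis, Igf1r, the IGF1 receptor, read 58.5, 51.2 and 65.2 CPM in WT 1, 2 and 3 and 131 and 125 CPM in PCa 1 and 2 (log2 fold change 1.14 ± 0.28 (SE), edgeR adjusted p = 0.0478). The Igf1r call was lost without WT 1, WT 2, WT 3, PIN 2, PIN 3, PCa 1 or PCa 2 (edgeR adjusted p up to 0.109, without WT 3). Mapk13, the p38 delta kinase, read 30.2, 14.95 and 15.1 CPM in WT and 126 and 173 CPM in PCa (log2 fold change 2.90 ± 0.49 (SE), edgeR adjusted p = 0.0162). The Mapk13 call was lost without WT 3 (edgeR adjusted p = 0.0690). Igf1, the ligand, read 35.6, 13.1 and 19.1 CPM in WT and 31.2 and 3.19 CPM in PCa (edgeR adjusted p = 0.792), inside the WT range in PCa 1. Of the EGF family, Erbb4 read 9.69, 4.94 and 4.502 CPM in WT and 0.0965 and 0.0686 CPM in PCa (log2 fold change -6.19 ± 0.71 (SE), edgeR adjusted p = 0.00694), and its call held with each library left out. Areg, amphiregulin, an EGF receptor ligand, read 0.0494, 0.0453 and 0.0732 CPM in WT and 2.45 and 38.3 CPM in PCa (log2 fold change 8.37, edgeR adjusted p = 0.0248). The Areg call was lost without WT 1, WT 2, WT 3 or PCa 2 (edgeR adjusted p up to 0.0919, without WT 3). Erbb2, the HER2 receptor, read 85.4, 56.8 and 59.2 CPM in WT and 287 and 116 CPM in PCa (log2 fold change 1.58, edgeR adjusted p = 0.0440). The Erbb2 call was lost without WT 1, WT 2, WT 3, PIN 1, PIN 2, PIN 3 or PCa 1 (edgeR adjusted p up to 0.133, without WT 3). Of 12 tested EGF family genes, 2 were called higher and 1 lower (4.35% and 4.18% of all genes were). Of the receptors, Erbb2 was called higher and Erbb4 lower, and the Erbb4 call alone held with each library left out.

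Hhip, which binds and blocks hedgehog ligands, read 29.9, 5.94 and 31.8 CPM in WT and 0.225 and 0.0343 CPM in PCa (log2 fold change -7.37 ± 1.16 (SE), edgeR adjusted p = 0.0134). This was the 1 call among 12 tested hedgehog and Osr genes (4.18% of all genes were called lower), and it held with each library left out. Tgfb1, the growth factor TGF-beta 1, read 11.8, 8.97 and 7.65 CPM in WT and 32.9 and 35.8 CPM in PCa (log2 fold change 1.86 ± 0.28 (SE), edgeR adjusted p = 0.0123). The Tgfb1 call was lost without WT 3 (edgeR adjusted p = 0.0504). Jag1, a Notch ligand, read 16.1, 12.96 and 21.3 CPM in WT and 60.1 and 39.0 CPM in PCa (log2 fold change 1.56, edgeR adjusted p = 0.0236). The Jag1 call was lost without WT 1, PIN 1 or PIN 3 (edgeR adjusted p up to 0.0634, without WT 1). Lifr, a receptor of the IL6 family, read 32.9, 17.7 and 24.6 CPM in WT and 81.2 and 73.4 CPM in PCa (log2 fold change 1.62, edgeR adjusted p = 0.0205). The Lifr call was lost without WT 3 (edgeR adjusted p = 0.0758). Foxc1, a forkhead factor of mesenchyme and of invasive carcinoma, read 4.55, 3.67 and 4.06 CPM in WT 1, 2 and 3 and 40.3 and 46.6 CPM in PCa 1 and 2 (log2 fold change 3.41 ± 0.24 (SE), edgeR adjusted p = 0.00325), with tumors of near-equal level, and its call held with each library left out. Sox4, a transcription factor of progenitor cells, read 30.4, 36.9 and 24.9 CPM in WT and 403 and 67.3 CPM in PCa (log2 fold change 2.94, edgeR adjusted p = 0.0403). The Sox4 call was lost without WT 1, WT 2, WT 3, PIN 1, PIN 2, PIN 3 or PCa 1 (edgeR adjusted p up to 0.127, without WT 3).

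Matrix proteases (Mmp11, Mmp12 and Adamts1), junction proteins (Cldn1, Gja1 and Gjb5) and S100 proteins (S100a6, S100a8 and S100a14) gave 3 calls higher each, of 17, 18 and 9 tested (4.35% of all genes were called higher). Without WT 3 the protease and junction lists had 0 calls higher and the S100 list 1. Mmp11, stromelysin 3, read 1.53, 0.408 and 1.06 CPM in WT and 10.1 and 16.9 CPM in PCa (log2 fold change 3.75 ± 0.58 (SE), edgeR adjusted p = 0.0126). The Mmp11 call was lost without WT 3 (edgeR adjusted p = 0.0562). Cldn1, a tight junction protein, read 24.7, 33.1 and 26.4 CPM in WT and 72.7 and 152 CPM in PCa (log2 fold change 2.00 ± 0.33 (SE), edgeR adjusted p = 0.0156). The Cldn1 call was lost without WT 3 (edgeR adjusted p = 0.0664). Gja1, the gap junction protein connexin 43, read 14.6, 23.7 and 15.01 CPM in WT and 33.7 and 1128 CPM in PCa (log2 fold change 5.03, edgeR adjusted p = 0.0357), mainly by PCa 2. The Gja1 call was lost without WT 1, WT 2, WT 3, PIN 1, PIN 2, PIN 3 or PCa 2 (edgeR adjusted p up to 0.120, without WT 3). Gjb1, connexin 32, went down, at 36.1, 15.6 and 26.2 CPM in WT and 0.740 and 4.66 CPM in PCa (log2 fold change -3.26, edgeR adjusted p = 0.0428). The Gjb1 call was lost without WT 1, WT 2, WT 3, PIN 1, PIN 2 or PIN 3 (edgeR adjusted p up to 0.105, without WT 3). S100a14, a calcium-binding protein of epithelia, read 1.14, 2.13 and 0.878 CPM in WT and 36.7 and 66.8 CPM in PCa (log2 fold change 5.23, edgeR adjusted p = 0.0210). The S100a14 call was lost without WT 1 or WT 3 (edgeR adjusted p up to 0.0812, without WT 3). S100a8, a subunit of the neutrophil protein calprotectin, had 2 reads over WT and 36.5 and 5.52 CPM in PCa, a ratio of 748 (95% counting interval 207 to 6181, edgeR adjusted p = 0.0108), and its call held in the 6 fits that left out a WT or PIN library, with no fit without PCa 1 or PCa 2.

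Leukocyte genes set PCa 1 apart. The 5 myeloid markers summed to 121, 41.0 and 52.3 TPM in WT, to 1029.7 in PCa 1 and to 91.8 in PCa 2. Of 13 tested genes of neutrophils, macrophages and monocytes, all 13 lay above WT in PCa 1 and 9 of the 13 below it in PCa 2 (32.9% and 36.0% of all genes did), and S100a8 alone was called. C1qa, a complement component made by macrophages, read 29.1, 13.7 and 11.3 CPM in WT 1, 2 and 3 and 61.7 and 6.17 CPM in PCa 1 and 2 (edgeR adjusted p = 0.544). H2-Eb1, an MHC class II chain, read 37.2, 21.3 and 27.1 CPM in WT and 88.9 and 3.43 CPM in PCa (edgeR adjusted p = 0.708). Both followed that split. Among chemokines, antigen presentation genes and lymphocyte genes, edgeR called 0 of 15, 0 of 17 and 0 of 9, and DESeq2 also called 0 in each, with 0, 1 and 0 at an unadjusted p under 0.05. On the log2 scale, list medians relative to the WT mean were 1.8999 and -1.23 for chemokines in PCa 1 and PCa 2, 1.26 and -1.72 for antigen presentation, and 1.37 and -2.20 for lymphocytes. Ltf, lactoferrin, read 0.742, 0.363 and 0.549 CPM in WT and 1382 and 0.480 CPM in PCa (edgeR adjusted p = 0.0813), another gene high in PCa 1 only.

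**Figure D4:**
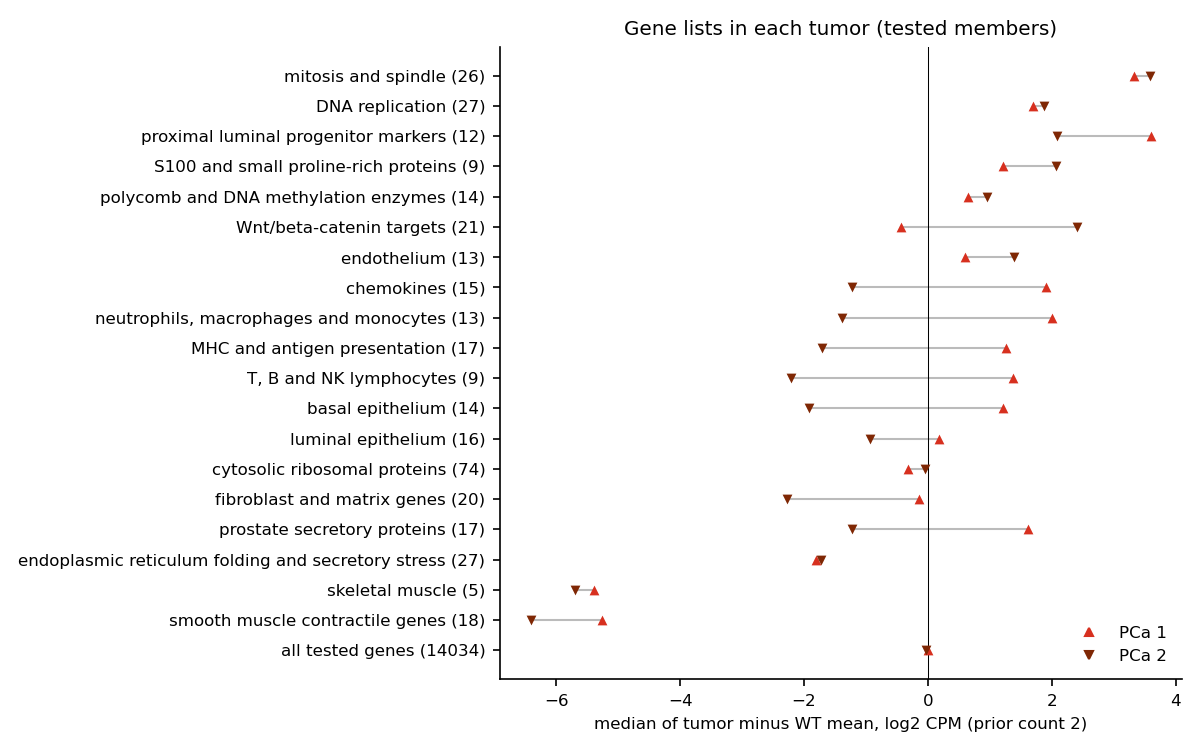
Median over the tested members of each list (their number in parentheses) of PCa 1 and of PCa 2 minus the WT mean, in log2 CPM, with a line joining the tumors. Mitosis, replication, ER folding and smooth muscle have both tumors on 1 side at like distance, while basal, leukocyte, chemokine, antigen presentation and Wnt target lists have them on opposite sides of 0.

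The genes whose tumors lay farthest apart across the WT range are shown for PCa 1 high and for PCa 2 high, and none was called. Id4, an inhibitor of helix-loop-helix factors, read 19.9, 11.8 and 24.1 CPM in WT 1, 2 and 3 and 255 and 1.44 CPM in PCa 1 and 2. Pak6, a p21-activated kinase, read 5.49, 2.76 and 2.93 CPM in WT and 57.1 and 0.411 CPM in PCa. Nostrin, Dpysl5 and Muc13, a membrane mucin, had the same arrangement, with PCa 1 at 86.4, 13.1 and 7.02 CPM. In the other direction, Mybpc1, a myosin-binding protein of slow muscle, read 6.48, 0.544 and 6.99 CPM in WT 1, 2 and 3 and 0 and 1736 CPM in PCa 1 and 2. Ism1, a secreted isthmin, read 11.9, 5.66 and 12.3 CPM in WT and 1.03 and 877 CPM in PCa, and Tspan12, a tetraspanin of the Norrin receptor complex, read 86.1, 133 and 109.9 CPM in WT and 14.9 and 720.1 CPM in PCa. Npas3, Msrb2 and Lgr5 had PCa 2 at 128, 71.8 and 321 CPM and PCa 1 below every WT library. Across all genes, 1001 had PCa 1 above and PCa 2 below WT, and 708 the reverse. Each tumor is 1 animal, so what parts them cannot be tested.

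**Figure D5:**
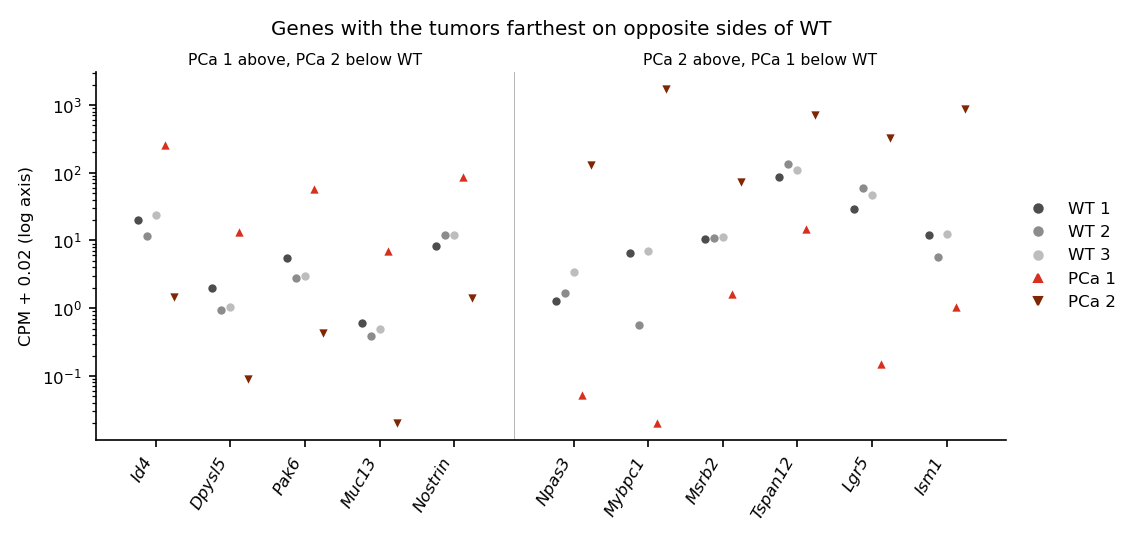
CPM plus 0.02 on a log axis in each of the 5 libraries, for 5 of the 6 genes with PCa 1 farthest above and PCa 2 farthest below WT (left) and the 6 with the reverse (right). In each gene the 3 WT libraries (grey circles) lie between the tumors (triangles).

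Several lists had no call. Of 74 tested cytosolic ribosomal protein genes, edgeR and DESeq2 called 0 in either direction and 2 had an unadjusted p under 0.05, with a median of -0.24. Of 10 mitochondrially encoded genes, both tools called 0, 0 had an unadjusted p under 0.05 and 0 had the tumors on opposite sides of WT. Of 17 genes of cholesterol and fatty acid synthesis, edgeR called 0, DESeq2 1 and 3 had an unadjusted p under 0.05. Of 7 adipocyte genes, edgeR called 0, DESeq2 1 and 1 had an unadjusted p under 0.05. Secreted kallikreins and serpins differed from these lists, since 8 of 10 had both tumors above every WT library (17.7% of all genes did) and 8 had an unadjusted p under 0.05 with higher levels in PCa. Of those 10, edgeR called 0 and DESeq2 7, with a median log2 fold change of 4.91.

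By chromosome, 1 stood apart in both tumors, a comparison made after the values were seen. Over the 556 tested genes of chromosome 15, the log2 median relative to WT was 0.23 in PCa 1, and in PCa 2 it was 0.30. The medians of the other chromosomes ran from -0.13 to 0.093 in PCa 1 and from -0.18 to 0.16 in PCa 2. Both tumors lay above WT for 27.2% of chromosome 15 genes and below for 12.4%, whereas elsewhere 12.96% to 20.2% lay above. On this chromosome 40 genes were called higher and 12 lower. In the PIN libraries its median lay between -0.071 and 0.00050, and each WT library against the others gave -0.12 to 0.17. On chromosome 7 the WT libraries against the others gave -0.24 to 0.25, so a shift of the size seen in PCa 1 also occurred among WT libraries, on another chromosome. Of genes described above, Ly6a, Ly6c1, Krt7 and Lifr, called higher, lie on chromosome 15, as do Rspo2 and Creld2, called lower, and Myc, which was not called.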

How the data were processed

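The deposited table holds raw read counts per gene, which the authors made from paired-end, ribosome-depleted RNA-seq with cutadapt 1.9.1, HISAT2 2.1.0 (mm9) and HTSeq 0.6.1, and each gene's summed exon length, another deposited value used here for TPM. The strand setting of the counting is not given in the sources used here. Counts were fitted in R 4.3.3 with edgeR 4.0.16 (quasi-likelihood test, TMM scaling, all 8 libraries in 3 groups, 5 residual degrees of freedom), keeping genes above 1 CPM in at least 2 libraries, and p-values were Benjamini-Hochberg adjusted over all 14034 genes. The test, scaling and filter follow the study's methods, except that those name TPM as the input of the test and read counts were fitted here. Differences of 1 tumor from WT used log2 CPM with a prior count of 2. Named genes were those of the androgen, IGF and Wnt axes, the 12 widest gaps between tumors and WT in each direction, up to 4 called or 3 opposed members of each of 46 lists, and the 6 most opposed genes each way. Some genes that this rule takes are not reported here. Other named list members were chosen after their values were seen. Members and lists were chosen with earlier results of these data known. Alternatives were other scalings, filters, DESeq2 1.42.0, limma 3.58.1, a model of WT and PCa only, a replicate block and leaving out each library. As animals are few, p-values measure the spread between these samples, and intervals and floors cover counting error only.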

Additional observations from a re-analysis of the deposited data

How the results depend on the processing

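With DESeq2, 1311 genes were called higher and 1176 lower, and these held all 611 and 581 of the 587 calls of edgeR. A model of WT and PCa only, which loses the PIN libraries from the estimate of the spread, called 67 and 63. With the replicate number as a block, 202 and 211 were called, but same-numbered libraries came from different animals. Residuals of libraries with the same number correlated at 0.0992 on average (-0.0562 to 0.284), and those with different numbers at -0.0505. WT 1 with PCa 1 gave 0.284, and WT 2 with PCa 2 gave 0.216. With so few libraries per group, these correlations cannot settle whether the numbers pair the samples. Leaving out 1 library gave 144 to 1018 genes higher and 203 to 1459 lower, which differ in the number of samples. Upper-quartile scaling (567 and 541), no filter (535 and 535), filterByExpr (605 and 589), limma-trend (587 and 736), edgeR's newer quasi-likelihood method (731 and 678) and scaling without the genes above 1% of a library (613 and 585) stayed within 1.5 times the counts. Genes with both tumors above WT numbered 2837 to 3562, both below 3121 to 3753 and on opposite sides 2003 to 2925 when 1 WT library was left out, most without WT 2. Among the named genes, 4 that were not called changed sign when a library was left out, with log2 fold changes from -1.61 (without PCa 2) to 2.38 for Axin2, from -2.81 to 0.48 (without PCa 2) for Igf1, which was also above 0 without WT 1 (0.10), from -8.39 (without PCa 2) to 2.84 for Lgr5, which was also below 0 with limma-trend (-2.42), and from -0.41 to 0.28 (without PCa 1) for Myc, which was also above 0 without WT 2 (0.028). Of 1918 repeats of a named gene, 1504 kept direction and side of the threshold, 393 lost the call and 14 gained one. List calls with the model of WT and PCa only were 17 of 26 for mitosis, 8 of 18 for smooth muscle, 1 of 27 for replication and 0 of 27 for ER folding, and with the replicate block 23, 14, 10 and 1. Apart from these tests, 2 tumors limit every comparison, and the total counts limit genes with few reads.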
